A study of Mus musculus with 21 samples.

Results

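A group of 10 genes of cellular iron uptake, storage and export was followed in blood stem and progenitor cells of mice with wild-type or mutant Etv6, a gene for a transcriptional repressor of the ETS family. The genes were Tfrc, Slc11a2, Steap3, Slc25a37, Fth1, Ftl1, Slc40a1, Hmox1, Aco1 and Ireb2. They were chosen by name, and all 10 were found by Entrez identifier among the 30519 genes of the deposited table. Bone marrow populations had been sorted by flow cytometry: hematopoietic stem cells (HSC), and the progenitors of red cells and platelets, called megakaryocyte-erythroid progenitors (MEP). Low-input RNA sequencing gave 21 libraries. In HSC there were 3 WT libraries, 3 with Etv6 P216L, 2 with Etv6 S211I and 3 with both substitutions, called the double mutant. In MEP there were 2 WT libraries (replicates 1 and 3), 3 P216L, 2 S211I and 3 double-mutant libraries. The genotype field has P211I for the substitution that the sample titles call S211I, and the title form is kept here. The sources used here do not give the strain, age or zygosity of the mice, or say whether each library came from its own animal. A p-value therefore measures the spread between libraries.

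Cells take up iron bound to transferrin through the transferrin receptor, reduce it in endosomes, pass it to the cytosol and deliver it to mitochondria for heme and iron-sulfur clusters. Surplus iron is held in ferritin, a shell of heavy and light chains, and leaves the cell through ferroportin. When iron is scarce, the iron regulatory proteins bind a hairpin called the iron-responsive element in messenger RNA: in a 5′ untranslated region (UTR) this blocks translation, as for ferritin, and in the 3′ UTR of the receptor it protects the message. Erythroid cells are known for a very large demand for iron, which serves heme synthesis.

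The hairpins of the members are shown because the iron regulatory proteins bind hairpins of this class. Each was found on the transcript strand alone, in mouse transcripts of GENCODE release M21 on build GRCm38. The pattern was a loop of 6 bases spelled CAGTGN on an upper stem of 5 pairs. A C had to stand before that stem, with 5 bases between the C and the loop. Below the C, at least 3 of 6 positions had to pair. G may pair with T, written T as in the genome. The 6 capitals mark the loop.
Fth1, 5′ UTR, chr19:9982732-9982761, + strand: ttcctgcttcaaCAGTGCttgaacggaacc
Ftl1, 5′ UTR, chr7:45459778-45459807, - strand: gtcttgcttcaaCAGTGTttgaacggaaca
Slc40a1, 5′ UTR, chr1:45925464-45925493, - strand: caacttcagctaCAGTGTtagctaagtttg
Tfrc, 3′ UTR, chr16:32631219-32631248, + strand: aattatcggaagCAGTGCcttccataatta
Tfrc, 3′ UTR, chr16:32631598-32631627, + strand: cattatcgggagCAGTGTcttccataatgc
Tfrc, 3′ UTR, chr16:32631663-32631692, + strand: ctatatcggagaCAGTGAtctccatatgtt
Tfrc, 3′ UTR, chr16:32631710-32631739, + strand: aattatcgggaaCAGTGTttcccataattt

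Compared position by position, the hairpins of the ferritin heavy and light chains had 26 of 30 bases in common. Those of ferritin and of Slc40a1 had 13 of 30. The 4 Tfrc copies lie in 1 UTR and had 18 to 25 of 30 bases in common over their 6 pairs. A match in a UTR was found for 4 of the 10 members, against 60 of 21877 coding genes (0.274%). The pattern describes the hairpin class already known in ferritin and the receptor, which are among the members. The share of members is therefore a description and no test of enrichment. Over those coding genes it was in the 5′ UTR of 12 (0.0549%) and in the 3′ UTR of 48 (0.219%). The Fth1 hairpin stood in 4 of 5 annotated coding transcripts, and those of Tfrc, Ftl1 and Slc40a1 in 1 of 3, 1 of 2 and 1 of 4. These counts include fragments. The Slc40a1 transcript with the hairpin is the only one of that gene annotated with both a start and a stop codon. The Tfrc transcript of 166 bases and the Fth1 one of 333 bases, both without a hairpin, also lack such a complete coding sequence. For the other 6 members no match to the full pattern of loop, C and paired stems was found. Hairpins that depart from this pattern were not searched, so this says nothing more about them. Counts per gene do not tell transcripts apart, so none of the values that follow is a value of the hairpin-bearing form alone.

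**Figure D1:**
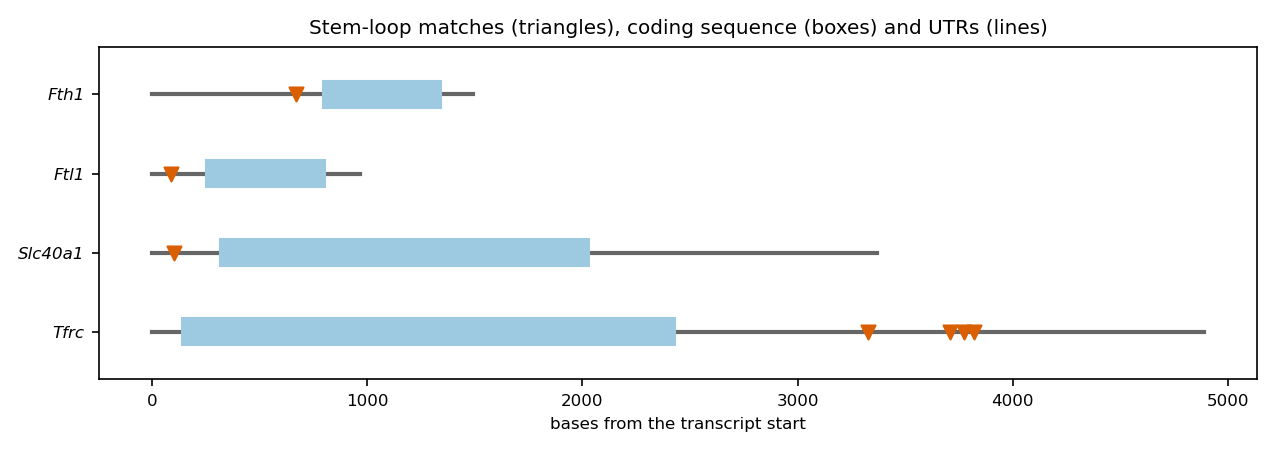
Position of the hairpin matches in 1 transcript of each of 4 members, the longest coding transcript that carries one; the x axis counts bases from the transcript start, boxes are coding sequence, lines are UTRs and triangles mark the start of the loop. Fth1, Ftl1 and Slc40a1 have 1 match each before the coding sequence, and Tfrc has 4 after it.

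Values are counts per 1000000 counts of the library's own total (CPM). The depth was 151216 to 2250654 counts in 10 of the 11 HSC libraries, with 3988 to 10280 genes detected. It was 3387389 to 12130358 in MEP, with 12723 to 15914 genes. In 1 HSC library the profile went against its label. This was HSC S211I replicate 2, as labelled, with 13154016 counts. Its log CPM correlated across genes at r = 0.992 with the mean MEP profile, against 0.561 to 0.860 for the other HSC libraries. A set of 8 stem cell markers summed to 144 CPM in it, against 1100 to 5308 in the other HSC libraries and 5.68 to 29.5 in MEP. For 7 of the 10 members its value lay inside the MEP range. It is therefore shown apart, and the S211I results in HSC and the S211I interaction are given with and without it. Leaving it out of the joint fit gave 4 members in WT and 5 in the average over genotypes, against 4 and 4 with it. Stem cell markers were present in every HSC library, but so were erythroid ones. A sum of 9 erythroid markers was 2070 to 5814 CPM in WT HSC, 7172 to 17420 in the other 7 mutant HSC libraries and 20410 to 25040 in MEP.

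**Figure D2:**
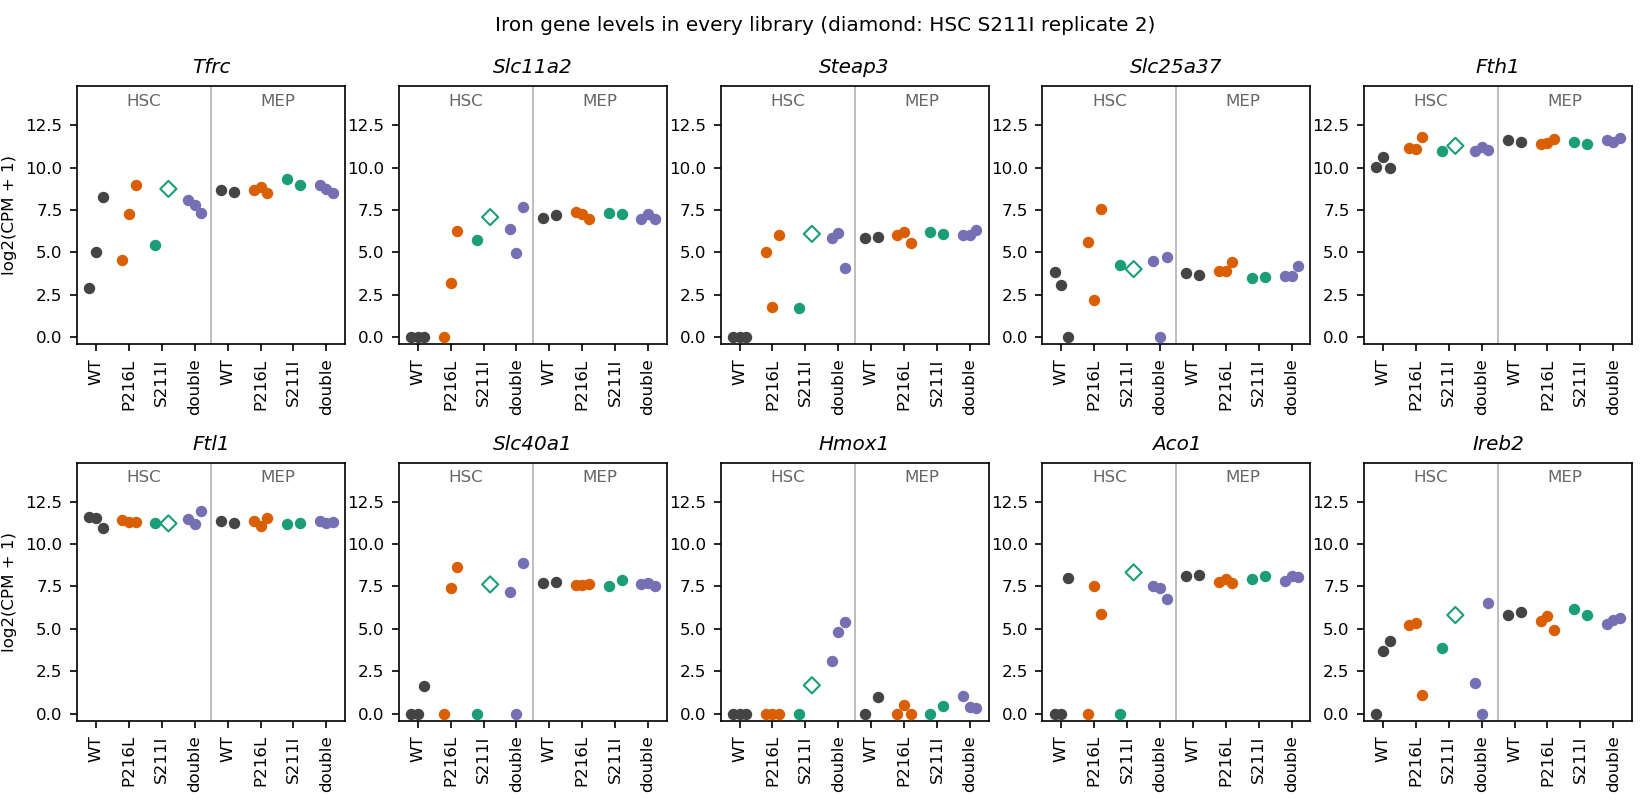
Level of each member in every library, on the y axis as log2(CPM + 1); points are single libraries, grouped on the x axis by cell type and genotype ("double" is the double mutant), and the open diamond is HSC S211I replicate 2. The MEP libraries of each gene form a narrow band, while HSC libraries spread from 0 to the MEP level or beyond for every member except Fth1, Ftl1 and Tfrc, which had reads in all libraries.

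Ferritin made up most of the members' reads in both cell types. Per kilobase of exon, the light chain Ftl1 stood at 2751 ± 591 CPM in WT HSC (SD, n = 3) and 2592 ± 111.5 in WT MEP (n = 2), and the heavy chain Fth1 at 740.4 ± 195 and 1890 ± 94.8. Next in WT MEP, on the same per-length scale, were Aco1 (74.45 ± 1.55), Tfrc (73.7 ± 5.53) and Slc40a1 (61.6 ± 2.65), of which the first 2 did not differ beyond their SD. Slc11a2 (21.8 ± 1.57), Steap3 (10.3 ± 0.292), Ireb2 (10.04 ± 0.899), Slc25a37 (2.86 ± 0.160) and Hmox1 (0.315 ± 0.446) followed.

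Between WT cell types, 4 members were higher in MEP and 0 lower. These were Slc11a2, Steap3, Fth1 and Slc40a1, which between them cover endosomal release, reduction, storage and export of iron. Over all 12036 genes of the joint fit, 3.62% were called higher and 0.474% lower in that comparison (edgeR quasi-likelihood test, adjusted p below 0.05). The median log2 fold change was 2.57 over the members and 0.90 over all genes. With genes at 0 in WT HSC set to a lower bound it was 2.20 over the 9 members that have one. The groups did not overlap for 7 of the 10 members, all higher in MEP, against 35.8% of genes tested.

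Averaged over WT, P216L and the double mutant, the same number of members, 4, was higher in MEP and 0 lower, against 16.2% and 6% of genes. The 4 were again Slc11a2, Steap3, Fth1 and Slc40a1. For all but Fth1, the WT part of the average rests on WT HSC groups of 0 or 1 counts. The median log2 fold change was 1.54 over the members and 0.73 over all genes. The voom fit with quality weights and limma with library weights each called 7 members higher, and called 34.7% and 36.2% of all genes higher. In P216L alone and in the double mutant alone 0 members passed in either direction, with 0 and 2 at an unadjusted p below 0.05. Of all 12036 genes, 2372 and 1960 had such an unadjusted p in these 2 comparisons. Few genes passed there at all: 0.00831% higher and 0.0665% lower in P216L, 0.00831% higher and 0.233% lower in the double mutant. Over 10 MEP libraries and 10 HSC libraries, leaving HSC S211I replicate 2 apart, 0 members had groups that did not overlap, against 3.65% of genes with MEP wholly higher.

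**Figure D3:**
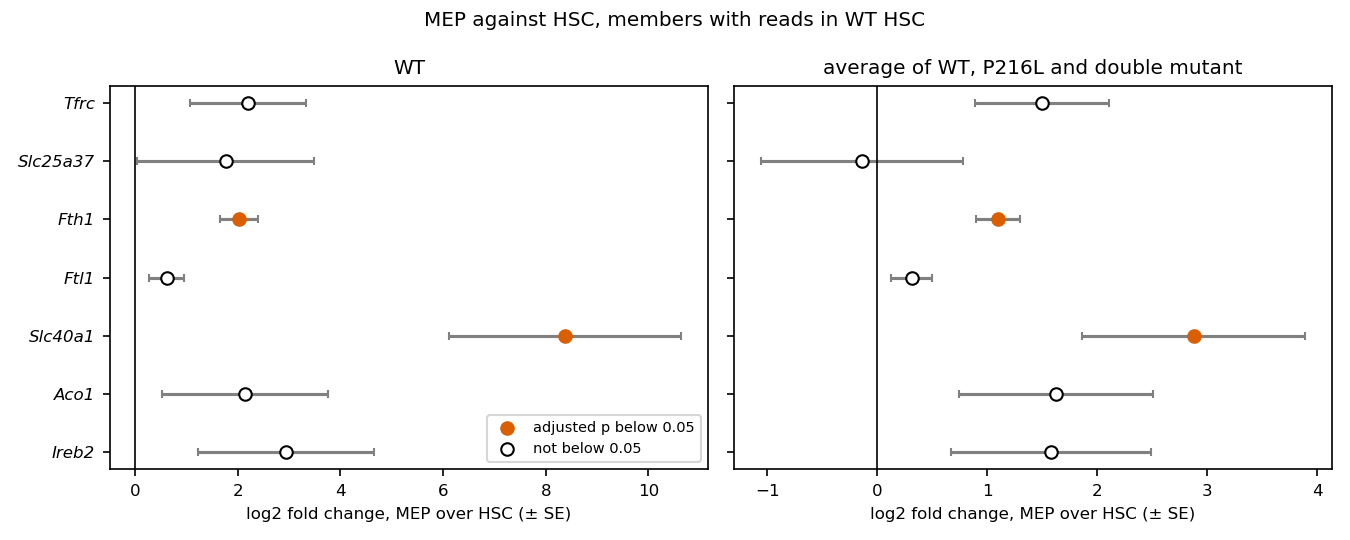
Log2 fold change of MEP over HSC on the x axis for the 7 members with reads in WT HSC, in WT (left) and averaged over 3 genotypes (right); bars are SE and filled points have an edgeR adjusted p below 0.05. Fth1 and Slc40a1 are filled in both panels, and Ftl1, at 0.62 in WT and 0.31 in the average, is open in both.

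Among the uptake genes, the transferrin receptor Tfrc (chr16:32608920-32632794, GRCm38) was read in all 21 libraries. In HSC it stood at 6.61, 31.7 and 306 CPM in WT, 22.2, 153 and 493 in P216L, 43.0 in S211I replicate 1 and 273, 219 and 161 in the double mutant, with 427 in HSC S211I replicate 2. The WT MEP libraries held 412 and 370 CPM, the P216L ones 406, 461 and 354, the S211I ones 645 and 491 and the double-mutant ones 495, 424 and 364. Both WT MEP libraries were above all 3 WT HSC libraries, whose values ranged more than those of any MEP group. The difference did not pass the threshold in WT (log2 fold change 2.20 ± 1.13, edgeR, adjusted p = 0.20) or in the average (1.495 ± 0.61, adjusted p = 0.078). Without HSC WT replicate 3, the one at 306 CPM, the values were 4.96 (edgeR, adjusted p = 0.027) and 2.42 (adjusted p = 0.0064), and the average also passed without HSC P216L replicate 3 (2.07, adjusted p = 0.017). HSC WT replicate 1, which is the shallowest library, held 1 Tfrc count.

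Slc11a2, the endosomal and plasma membrane transporter of ferrous iron (chr15:100387898-100425072), had no reads in the 3 WT HSC libraries. It stood at 0, 8.36 and 75.3 CPM in P216L HSC, 52.0 in S211I replicate 1 and 81.4, 29.8 and 202 in the double mutant, with 134 in HSC S211I replicate 2. All MEP libraries lay between 122 and 164 CPM: WT at 130 and 144, P216L at 164, 153 and 124, S211I at 159 and 155, the double mutant at 122, 149 and 125. WT MEP was at least 47.5-fold higher than WT HSC (edgeR, adjusted p = 0.011), taking 3 counts over the summed WT HSC libraries as the floor. At the WT MEP level those libraries would have held 142.5 counts. The bound covers counting error only. In the average over genotypes Slc11a2 was also higher in MEP (edgeR, adjusted p = 0.0030).

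Steap3, the endosomal ferrireductase of erythroid cells (chr1:120190757-120272705), likewise had no reads in WT HSC. It stood at 32.0, 2.39 and 64.7 CPM in P216L HSC, 2.26 in S211I replicate 1, which is 1 count, and 55.8, 70.4 and 16 in the double mutant. HSC S211I replicate 2 held 67.2. MEP held 57.6 and 59.9 CPM (WT), 63.9, 71.3 and 45.5 (P216L), 74.0 and 66.3 (S211I) and 65.3, 63.8 and 77.3 (double mutant). WT MEP was at least 20.4-fold higher than WT HSC (edgeR, adjusted p = 0.028), a call lost without any 1 of the 5 libraries (adjusted p = 0.053 to 0.084). The average over genotypes was higher in MEP as well (edgeR, adjusted p = 0.012) and stayed past the threshold in all 26 alternatives.

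Slc25a37, which encodes mitoferrin, the importer of iron into mitochondria (chr14:69241848-69285112), had its highest value in HSC. It stood at 13.2, 7.31 and 0 CPM in WT HSC, 47.1, 3.58 and 188 in P216L, 18.1 in S211I replicate 1 and 21.8, 0 and 25.8 in the double mutant, with 15.2 in HSC S211I replicate 2. The 10 MEP libraries ranged from 10.2 to 20.7 CPM around a median of 12.2. P216L replicate 3 was the one HSC library far above MEP. That library also had the highest level in HSC of a late erythroid marker, the anion exchanger gene Slc4a1, at 594 CPM (0 to 137 in the other HSC libraries). Its part in the result was not tested. In bulk libraries a change in the share of a cell type and a change in RNA per cell cannot be told apart.

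The ferritin heavy chain gene Fth1, whose product oxidizes iron for storage (chr19:9980598-9985098), had its 3 lowest values in WT HSC. It stood at 1038, 1562 and 995 CPM in WT HSC, 2310, 2188 and 3583 in P216L, 2009 in S211I replicate 1 and 1987, 2398 and 2067 in the double mutant, with 2479 in HSC S211I replicate 2. WT MEP held 3167 and 2950 CPM, P216L MEP 2676, 2807 and 3297, S211I MEP 2853 and 2683, and double-mutant MEP 3196, 2871 and 3371. The highest WT HSC value was below the lowest of every other group, and P216L HSC replicate 3 was above all MEP libraries. How many genes show that split from every other group was not counted. WT MEP lay wholly above WT HSC for 35.8% of genes tested. The 7 mutant HSC libraries other than S211I replicate 2 did so for 1.81%. In the order of the 8 group means, only the step from double-mutant HSC to WT HSC exceeded the larger SD of the neighbours, at 3.02 times that SD. WT MEP was higher than WT HSC by 2.02 ± 0.37 on the log2 scale (edgeR, adjusted p = 0.0030). The average over genotypes was 1.10 ± 0.20 (edgeR, adjusted p = 0.00080). With relative log expression size factors, which shift the median of all genes by −0.66 and −0.40 in these comparisons, the values were 1.28 and 0.64 and stayed past the threshold (edgeR, adjusted p = 0.023 and 0.0094). The WT call held in 11 of 14 alternatives and that of the average in 25 of 26. It was lost in WT with voom, with only the groups compared and with no filter (edgeR, adjusted p = 0.15 for the last).

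The light chain gene Ftl1 (chr7:45457944-45459884), whose product supports mineral formation, was read in all 21 libraries. It stood at 3052, 2930 and 2006 CPM in WT HSC, 2712, 2554 and 2541 in P216L, 2393 in S211I replicate 1 and 2808, 2278 and 3972 in the double mutant, with 2375 in HSC S211I replicate 2. MEP ranged from 2143 to 2909 around a median of 2468. The log2 fold change in WT was 0.62 ± 0.34 (edgeR, adjusted p = 0.24) and turned to −0.15 with relative log expression size factors. Mean CPM went the other way from the first value, at 2663 in WT HSC and 2509 in WT MEP. The fit further scales each library total by a size factor, 1.14 to 1.69 in WT HSC and 0.841 and 0.859 in WT MEP. Estimated Ftl1 counts were not whole (461.5, 1202.4 and 963.7 in WT HSC, where those of Fth1 were 157, 641 and 478). Ferritin genes have processed copies in the mouse genome, and whether the counting shared reads with them was not tested.

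The ratio of Fth1 to Ftl1 within a library does not depend on the scaling. It was 0.340 to 0.533 in WT HSC, 0.852 to 1.41 in P216L HSC, 0.840 in S211I replicate 1 and 0.520 to 1.05 in the double mutant. The 10 MEP libraries had ratios of 1.01 to 1.36, with 1.21 and 1.23 in WT. WT HSC and MEP did not overlap, while the lowest double-mutant HSC ratio lay within the WT range.

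Slc40a1 encodes ferroportin, the only known cellular iron exporter (chr1:45908068-45926519). It stood at 0, 0 and 2.08 CPM in WT HSC, the last being 1 count, 0, 171 and 399 in P216L, 0 in S211I replicate 1 and 144, 0 and 480 in the double mutant, with 196 in HSC S211I replicate 2. All MEP libraries lay between 181 and 233 CPM: WT at 207 and 220, P216L at 194, 191 and 198, S211I at 181 and 233, the double mutant at 198, 205 and 181. HSC libraries were thus either near 0 or at 144 CPM and above, with nothing between. The pooled ratio of WT MEP to WT HSC was 225 (95% exact binomial interval 40.3 to 8880, counting error only; edgeR, adjusted p = 0.034). In the average over genotypes the log2 fold change was 2.87 ± 1.01 (edgeR, adjusted p = 0.041). The WT part of that average rests on 1 WT HSC count. In P216L the value was 0.23 ± 1.415 and in the double mutant 0.015 ± 1.41, neither past the threshold. The WT call was lost without any 1 of its 5 libraries (edgeR, adjusted p = 0.063 to 0.113), and the average was past the threshold in 13 of 26 alternatives.

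Hmox1 encodes the inducible heme oxygenase, which frees iron from heme (chr8:75093621-75100589). It had no reads in WT or P216L HSC or in S211I replicate 1, and stood at 7.70, 27.1 and 41.3 CPM in the double mutant, from 12, 10 and 93 counts. HSC S211I replicate 2 held 2.21 CPM, and the MEP libraries 0 to 1.04. The lowest double-mutant HSC value, 7.70 CPM, was under the 19.8 CPM that 3 counts make in HSC WT replicate 1. It was close to the 7.31 and 7.39 CPM that 3 counts make in HSC WT replicate 2 and HSC P216L replicate 1. Against WT HSC alone, 4 of the 10 members had double-mutant HSC wholly higher, beside 11.3% of genes tested. The double-mutant HSC mean was at least 8.81-fold above the WT HSC floor of 2.88 CPM. The difference did not pass the threshold (edgeR, adjusted p = 0.47). Macrophages express Hmox1 and Slc40a1 when they recycle red cells, so their markers are given beside these values. A list of 10 macrophage markers summed to 61.6, 35.2 and 389 CPM in the double-mutant HSC, 0 in each WT HSC library, 0, 64.5 and 43.5 in P216L and 4.53 in S211I replicate 1. In the double-mutant replicate 3, 9 of the 10 were detected (Adgre1 98.2, Cd68 122 and C1qc 99.1 CPM, with Csf1r at 0), and 2 and 3 of the 10 in replicates 1 and 2. That library also held the highest Slc40a1 value of all. The P216L libraries at 64.5 and 43.5 had no Hmox1 reads, Slc40a1 was at 0 in double-mutant replicate 2, and MEP libraries had 181 to 233 CPM of Slc40a1 beside macrophage sums of 2.16 to 9.43. The part of these markers in the result was not tested.

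**Figure D4:**
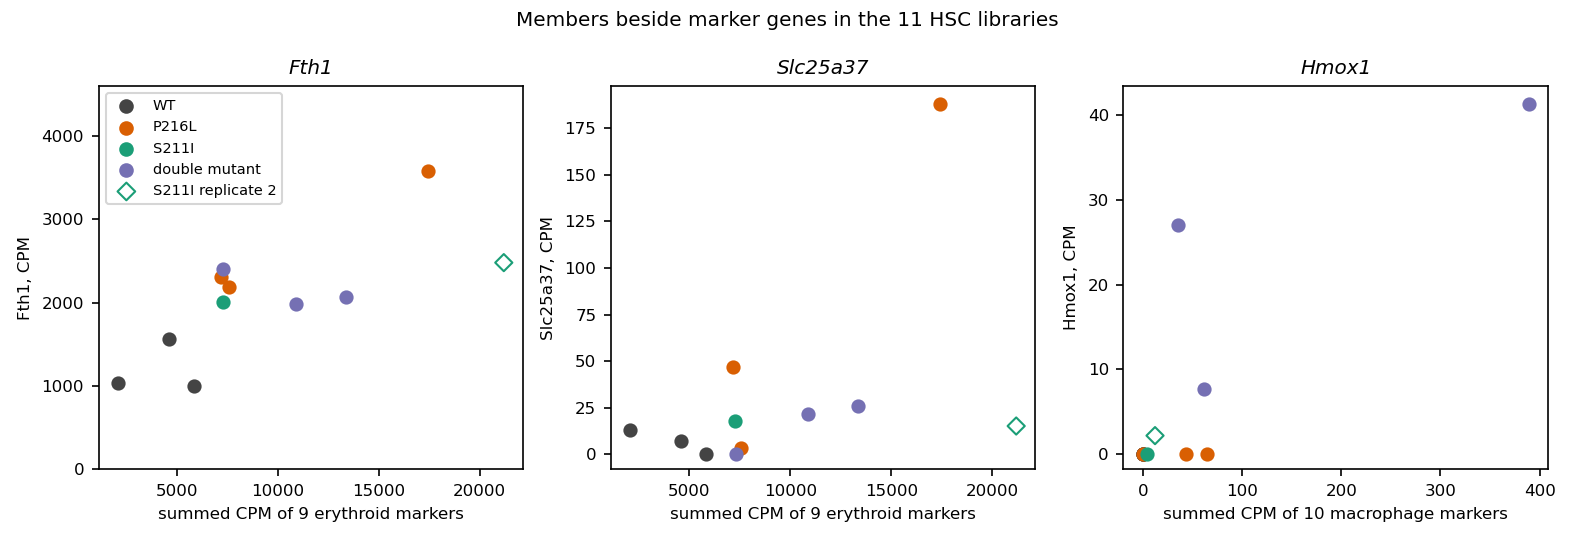
Members on the y axis (CPM) beside summed marker genes on the x axis (CPM) in the 11 HSC libraries, coloured by genotype; the open diamond is S211I replicate 2. WT libraries lie at the low end of the erythroid sum with the lowest Fth1, P216L replicate 3 has the highest Slc25a37 at 188 CPM, and double-mutant replicate 3 has the highest Hmox1 at 41.3 CPM beside a macrophage sum of 389.

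The iron regulatory proteins come from Aco1 and Ireb2. Aco1, which is an aconitase when it carries an iron-sulfur cluster (chr4:40143081-40198338), stood at 0, 0 and 256 CPM in WT HSC, 0, 183 and 57.6 in P216L, 0 in S211I replicate 1 and 185, 168 and 106 in the double mutant, with 320 in HSC S211I replicate 2. MEP ranged from 205 to 290 CPM, with 281 and 290 in WT. Both WT MEP libraries were above the WT HSC libraries, of which replicate 3 was close to them (2.14 ± 1.61, edgeR, adjusted p = 0.41). Without that replicate the remaining WT HSC libraries are at 0, and Aco1 passed (edgeR, adjusted p = 0.027). It also passed with voom (4.96, adjusted p = 0.033) and with limma library weights (5.30, adjusted p = 0.0085). Ireb2, which is removed by degradation when iron is plentiful (chr9:54863789-54912530), stood at 0, 12.2 and 18.7 CPM in WT HSC, 36.9, 39.4 and 1.18 in P216L, 13.6 in S211I replicate 1 and 2.57, 0 and 92.4 in the double mutant, with 55.3 in HSC S211I replicate 2. WT MEP held 55.0 and 62.4 CPM. The WT difference did not pass (2.95 ± 1.72, edgeR, adjusted p = 0.27).

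The mutant HSC groups were compared with WT HSC, all with the same 3 WT libraries. In each of the 3 comparisons 0 members passed, and 4 had an unadjusted p below 0.05: Slc11a2, Steap3, Fth1 and Slc40a1, all higher in the mutants. In S211I only Slc11a2 remained of these without replicate 2. Erythroid markers summed to 2070 to 5814 CPM in WT and 7172 to 17420 in the 7 mutant HSC libraries other than S211I replicate 2, and stem cell markers to 2817 to 5308 and 1100 to 2948. Their part in these values was not tested. Over all genes 0.106% passed in P216L, 0.0845% in S211I and 0.0739% in the double mutant, with 1223, 772 and 997 of 9471 genes at an unadjusted p below 0.05. Relative log expression size factors shift the median of all genes by −0.21, −0.39 and −0.27 here. Fth1 was higher by 1.36 ± 0.41 in P216L (edgeR, adjusted p = 0.20), 1.23 ± 0.44 in S211I (adjusted p = 0.49) and 1.11 ± 0.41 in the double mutant (adjusted p = 0.47). All 7 mutant libraries other than S211I replicate 2 were above the 3 WT libraries for Fth1 and for Steap3. These 2 of 10 members compare with 1.81% of genes that had such a gap upward. For Steap3 the gap rests on the libraries at 2.26 and 2.39 CPM, under the 6.24 to 19.8 CPM that 3 counts make in a WT library.

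The medians over members in HSC were 1.29 in P216L, 1.87 in S211I and 1.79 in the double mutant, and 0.13, 0.43 and 0.44 over all genes. With lower bounds in place of fits to a group at 0 they were 1.36, 1.75 and 1.79. Without replicate 2 the fitted S211I median was 0.17. Counting Slc40a1 with its 1 WT read, the pooled ratio to WT was 240 in P216L (counting interval 42.8 to 9490) and 325 in the double mutant (58.2 to 12800). Without replicate 3 of each group these were 120 and 121. Slc11a2 was at least 9.68-fold above WT by its P216L mean and at least 36.3-fold by its double-mutant mean, and Steap3 at least 11.5- and 16.5-fold. Without replicate 3 the P216L bounds were 1.45 for Slc11a2 and 5.97 for Steap3, and the double-mutant bound for Slc11a2 was 19.3. These bounds leave out the spread between libraries, and the edgeR adjusted p was 0.37 and 0.47 for Slc11a2 and 0.38 and 0.47 for Steap3.

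In S211I HSC, much of the difference from WT came from replicate 2. Without replicate 2 only replicate 1 is left. The edgeR log2 fold change of Tfrc then went from 1.27 to −1.51 and that of Fth1 from 1.23 to 0.84. That of Slc40a1 went from 7.03 to −2.60 and that of Aco1 from 1.14 to −9.06. Both are at 0 in replicate 1, so these 2 values are fits to 0 and no bounds. In WT HSC, Slc40a1 has 1 count and Aco1 has reads in replicate 3 alone. Among the fits tried, some tools called members in HSC: DESeq2 called Slc40a1 in P216L (adjusted p = 0.0499) and Slc11a2 in the double mutant (adjusted p = 0.047), with 4.2% and 2.26% of all genes called. The limma voom fit with quality weights called Slc11a2 in S211I and the double mutant (adjusted p = 0.0013 and 0.020) and Fth1 in S211I (adjusted p = 0.030), with 6.58% of genes called in S211I and 2.33% in the double mutant. Without S211I replicate 2 voom called neither in S211I (adjusted p = 0.46 for Slc11a2 and 0.835 for Fth1).

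In MEP, where the libraries of a group differed little, 0 members passed in P216L, S211I or the double mutant against WT. Over all genes 0%, 0% and 0.102% passed, with 552, 511 and 565 of 10773 at an unadjusted p below 0.05. The members' median log2 fold changes were 0.01, −0.08 and −0.01, with 0.01, 0.00 and 0.01 over all genes. Of the 10 members 9 were tested, since Hmox1 was too low, and 2, 1 and 0 had an unadjusted p below 0.05. DESeq2 and voom called 0 as well. Across the 10 MEP libraries the highest value was 1.26 times the lowest for Fth1, 1.29 for Slc40a1, 1.34 for Slc11a2 and at most 2.36 among the 9 tested, for Ireb2.

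The precision of the MEP fold changes differed between members, with SE from 0.11 for Fth1 to 0.34 for Slc25a37. Fth1 stood at −0.08 ± 0.11 in P216L, −0.18 ± 0.12 in S211I and 0.03 ± 0.11 in the double mutant on the log2 scale. Values for Slc40a1 were −0.16 ± 0.13, −0.08 ± 0.14 and −0.15 ± 0.13, and for Slc11a2 0.09 ± 0.14, 0.16 ± 0.16 and −0.06 ± 0.14. Slc25a37, the mitochondrial importer gene, stood at 0.39 ± 0.30, −0.26 ± 0.34 and 0.10 ± 0.30.

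Tfrc in S211I MEP, at 645 and 491 CPM against 412 and 370 in WT, had an unadjusted p of 0.0050 (0.50 ± 0.16, edgeR, adjusted p = 0.94). In the double mutant, which carries the same substitution, Tfrc was 0.11 ± 0.14 (adjusted p = 1.0), with libraries on both sides of the WT values. Comparing the 5 MEP libraries with S211I to the 5 without it gave 0.29 ± 0.10 for Tfrc (unadjusted p = 0.011, edgeR, adjusted p = 0.99), and 0 members passed, against 0.00928% of genes.

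For the P216L substitution, the iron regulatory protein genes had the smallest p-values. Ireb2 stood at 43.1, 53.8 and 30.1 CPM in P216L and 38.7, 45.2 and 48.7 in the double mutant, against 55.0 and 62.4 in WT and 71.1 and 55.4 in S211I. All 6 MEP libraries with P216L were below all 4 without it, the only member of the 10 with such a gap, and 0.696% of genes had one downward. The step between the nearest libraries was small, 53.8 to 55.0 CPM. The log2 fold change was −0.48 ± 0.15 (unadjusted p = 0.0040, edgeR, adjusted p = 0.57), and 0 members passed, against 0.0186% of genes. Aco1 in P216L MEP stood at 215, 244 and 205 CPM against 281 and 290 in WT (−0.39 ± 0.12, unadjusted p = 0.0053, edgeR, adjusted p = 0.98). In the double mutant it was 226, 273 and 270 (−0.17 ± 0.12, adjusted p = 1.0).

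**Figure D5:**
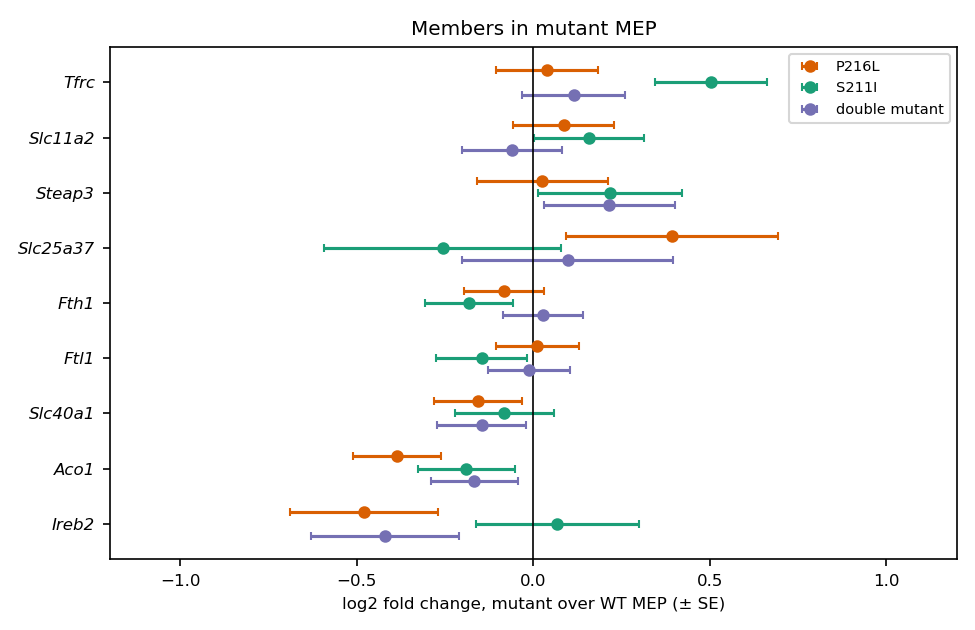
Log2 fold change of each mutant over WT MEP on the x axis, with SE bars, for the 9 members tested. Tfrc in S211I is the highest point at 0.50 and Ireb2 in P216L the lowest at −0.48, and 0 have an edgeR adjusted p below 0.05.

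Whether a substitution acted differently in MEP and HSC was tested as an interaction. For P216L, S211I and the double mutant 0 members passed, against 0.0997%, 0% and 0.0166% of genes. An unadjusted p below 0.05 was found for 4, 4 and 5 members, beside 1948, 1281 and 1832 of all 12036 genes. DESeq2 called 3, 1 and 3 members, all smaller in MEP: Slc11a2, Steap3 and Slc40a1 in P216L and the double mutant (adjusted p = 0.0026 to 0.045), and Slc11a2 in S211I (adjusted p = 0.014, or 0.049 without HSC S211I replicate 2). DESeq2 called 9.34%, 4.47% and 6.58% of all genes there. The fitted values of all 10 members were below 0 in each case, that is, smaller in MEP, but not in every alternative. Over all genes 45.6%, 37.4% and 36.1% of fitted values were above 0. Hmox1 in P216L, where both HSC groups are at 0, was −1.54 with an SE of 3064. Ftl1 turned to 0.14 in P216L and 0.13 in S211I with relative log expression size factors, which shift the median of all genes by 0.33, 0.51 and 0.43 here, and likewise with DESeq2. In S211I, leaving out HSC replicate 2 turned Tfrc to 2.17, Slc40a1 to 4.22 and Aco1 to 10.77, and the median over members went to −0.53. In P216L, Aco1 turned to 0.91 without HSC P216L replicate 2 and to 0.16 and 0.17 without HSC WT replicate 1 or 2, Tfrc to 0.38 without HSC P216L replicate 3 and Hmox1 to 2.58 without MEP WT replicate 3. In the double mutant, Ireb2 turned to 1.98 without HSC replicate 3. The fitted values of Slc11a2, Steap3 and Hmox1 rest on WT HSC libraries at 0, and those of Slc40a1 on 1 WT HSC count. They are no bounds. Without HSC S211I replicate 2, the S211I values of Slc40a1 and Aco1 also rest on 0 in the lone S211I library left. With all libraries the medians over members were −1.62, −2.12 and −2.16 against −0.20, −0.76 and −0.66 over all genes. The 3 tests share the WT libraries of both cell types. For Fth1 the difference was −1.54 ± 0.49, −1.54 ± 0.55 and −1.24 ± 0.49 (edgeR, adjusted p = 0.19, 0.39 and 0.25), and −0.94 in S211I without HSC replicate 2 (adjusted p = 0.57).

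Of 52 other iron genes in 6 lists, 38 could be tested between cell types, and 7 were higher and 1 lower in MEP in the average over genotypes, where 16.2% and 6% of all genes were. In WT alone 2 were higher and 0 lower, against 3.62% and 0.474% of all genes. These counts are small and near those shares, and nothing is read from them about the lists. Of the heme handling list 3 of 7 tested were higher: the heme exporter gene Flvcr1, the biliverdin reductase gene Blvrb and the haptoglobin receptor gene Cd163. Flvcr1 was at 0 to 3.11 CPM in the HSC libraries other than S211I replicate 2, where it was 62.3, and at 39.0 to 66.9 CPM in MEP (edgeR, adjusted p = 0.00096). Blvrb stood at 6.61, 0 and 27.1 CPM in WT HSC, 75.8 to 547 in the mutant HSC libraries and 425 to 571 in MEP (average log2 fold change 2.58 ± 0.53, edgeR, adjusted p = 0.0019). Cd163 was at most 6.63 CPM in any MEP library.

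Of 13 iron-sulfur cluster genes 3 were higher and 0 lower, beside 16.2% and 6% of all genes: the mitochondrial chaperone gene Hspa9 (1.91 ± 0.36, edgeR, adjusted p = 0.0010), the cysteine desulfurase gene Nfs1 (2.51 ± 0.75, adjusted p = 0.018) and the glutaredoxin gene Glrx5 (0.96 ± 0.32, adjusted p = 0.034). The cytosolic iron chaperone gene Pcbp1, 1 of 3 storage genes tested, was higher by 1.51 ± 0.44 (edgeR, adjusted p = 0.017). The single gene lower in MEP was Trf, which encodes transferrin, of the uptake list (1 of 8 tested): 0, 339 and 204 CPM in WT HSC and 0.864 to 7.09 in MEP (−4.46 ± 1.15, edgeR, adjusted p = 0.0076). Of 6 regulators tested and the 1 gene tested of the export and hepcidin list, 0 passed. In every mutant comparison within HSC or MEP, 0 of the other iron genes passed.

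Hfe, the partner of the transferrin receptors that senses iron, stood at 238, 122 and 24.98 CPM in WT HSC. It was at 0 in the other HSC libraries except S211I replicate 2 (1.14) and at most 1.26 in MEP. It is named here after its values were seen, and passed in no comparison. Of the 9471 genes tested in HSC, 147 (1.55%) had the 7 mutant libraries other than S211I replicate 2 wholly below the 3 WT ones.

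The genes whose log2(CPM + 1) followed a member most closely over 20 libraries, HSC S211I replicate 2 left out, were chosen among 9094 genes with a mean of at least 10 CPM. For Fth1 they were Eef1g (r = 0.944), H2az1 (0.919) and Pes1 (0.915), for Tfrc Odc1 (0.956), 2310022B05Rik (0.95) and Cdc45 (0.947), and for Slc40a1 Pccb (0.992), Kel (0.991) and Hars2 (0.987). These values are descriptions, since the points share the step between cell types and its difference in depth. Within the 10 MEP libraries r was 0.818 for Eef1g with Fth1 and −0.322 to 0.662 for the other 8 pairs.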

How the data were processed

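The authors deposited 1 table of estimated counts per Entrez gene. Per the submitters' processing notes FastQC and Salmon were used with build GRCm39. Their versions, the strand setting and any filter are not given in sources used here. Per the labels' protocols RNA came from sorted cells (NucleoSpin RNA XS) and SMART-Seq v4 Ultra Low Input (Takara) made the libraries. Of 30519 genes, 30211 took a symbol from the RefSeq tables; the other 308 held 0.044% of counts. Of the nonzero values per library, 6.09 to 33.07% were not whole, and they were rounded for the tests. Libraries of a group were not copies of each other (chi-square per degree of freedom 4.63 to 88.2 over 18 pairs).

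HSC (9471 genes), MEP (10773) and all libraries together (12036) were fitted in R 4.3.3 by edgeR 4.0.16, with limma 3.58.1. Size factors were trimmed means of M values. Genes needed a count of 10 and a total of 15 in filterByExpr. The quasi-likelihood fit was robust, with Benjamini-Hochberg adjustment over all genes of each of 15 comparisons at 0.05. The biological coefficient of variation was 1.60 in HSC, 0.174 in MEP and 1.06 jointly, so a missing HSC call says little. The comparisons of MEP with HSC and the interactions come from the joint fit. Scripts were tested on simulated data. Errors are SE for fold changes and SD for levels. Floors of 3 counts and the 95% intervals cover counting error only.

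The members and lists were chosen with earlier results of these data known. All 10 members are named. Of the other iron genes, those past the threshold in the WT or averaged MEP comparison or in a mutant comparison are named, at most 4 per list. The 3 genes with the highest r are named for Tfrc, Fth1 and Slc40a1. Hairpins were searched in GENCODE M21 transcripts (GRCm38), as the authors' build was not used here. Alternatives were relative log expression size factors, no filter, a replicate block, DESeq2 1.42.0, voom with quality weights, limma on log2(CPM + 1) with library weights, a Y-linked covariate in HSC, leaving out each library, and fitting only the groups compared; chosen after seeing the data were a fit without 3 HSC libraries, and voom and DESeq2 without HSC S211I replicate 2.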

Additional observations from a re-analysis of the deposited data

How the results depend on the processing

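The count of members past the threshold stayed within 1.5 times in 210 of 233 alternatives over the 15 comparisons. In WT MEP against HSC (4 members) it was 2 with relative log expression size factors, 0 when only those groups were fitted and 2 to 4 with 1 library left out. In the average over genotypes (4) it was 7 with voom, 7 with limma library weights and 3 to 6 with 1 library left out. In P216L (0) it was 0 to 1, the 1 being Slc11a2 without HSC P216L replicate 3. In the double mutant (0) it was 1 with voom (Hmox1, lower in MEP) and 1 with only the groups compared (Fth1). In HSC, DESeq2 gave 1 in P216L and 1 in the double mutant, and voom gave 2 in S211I and 1 in the double mutant. For the interactions DESeq2 gave 3, 1 and 3 in P216L, S211I and the double mutant.

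Without double-mutant replicate 3, P216L replicate 3 and S211I replicate 2 of HSC, a setting chosen after seeing the data, the average gave 7, P216L 2 and the double-mutant interaction 2. DESeq2 without HSC S211I replicate 2, also chosen after seeing the data, gave 1 in S211I HSC (Aco1, at 0 in the lone library left) and 2 in its interaction (Aco1 and Slc11a2). The cause of these shifts was not tested. In the MEP comparisons of mutants with WT and in those by substitution, 0 members were called in any alternative.

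The called values of Fth1, Slc11a2, Steap3 and Slc40a1 kept their direction in all 160 alternatives and fell below the threshold in 32. In WT, Fth1 did so with no filter, voom or only the groups compared (adjusted p = 0.15, 0.11 and 0.11), and Slc11a2 only with the groups compared (0.11). Where 1 of 2 libraries of a group was left out, the lone library is assumed to vary like the other groups.

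Replicate numbers did not pair the libraries: correlations of same-numbered deviations were −0.067 to 0.246 over 15 HSC pairs and −0.092 to 0.034 over 12 MEP pairs. With replicate as a block the count was 4 in WT, 5 in the average and 0 elsewhere.

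Size factors set part of the cell-type difference: with relative log expression the genes higher and lower went from 436 and 57 to 194 and 72 in WT, from 1946 and 722 to 1216 and 880 in the average, and from 10 and 0 to 15 and 3 in P216L HSC. Depth limits HSC, where 3 counts made 1.33 to 19.8 CPM, apart from S211I replicate 2.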
